A study of Mus musculus with 232 samples.

Results

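The Myc network is the set of basic helix-loop-helix leucine zipper transcription factors that pair with Max, or compete for it, on the DNA element called the E-box. Its 9 genes described here were taken from a list of network genes by their symbols and comprised Myc, Mycn and Mycl (the activators), Max (their obligate partner), Mga (a large Max partner) and Mxd1, Mxd3, Mxi1 and Mnt (the repressors). All 9 were among the 42493 genes of the files, and all 9 were among the 11227 whose count averaged 5 or more per cell.

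Single mouse embryonic stem cells (ESCs) were captured on a C1 microfluidic circuit and sequenced one by one, and the measurement was the expected number of reads per gene and cell. The first condition was the V6.5 wild-type (WT) line. The other 3 were Dgcr8-/- cells, which lack a protein needed to make most miRNAs, and were mock transfected or given a miR-294 mimic or a let-7 mimic 24 h before capture. The let-7 mimic was called let-7i in the sample titles, let-7b in the series description and let-7c in the study's methods. All cells were grown in serum with LIF and 2i (a MEK and a GSK3 inhibitor), and the knockout conditions came from a single established knockout line.

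Of 182 cells in the files, 178 were counted here, with 60 mock Dgcr8-/-, 16 WT, 45 let-7 and 57 miR-294 cells. In 4 cases a pair of neighbouring cells (3 let-7 pairs and 1 miR-294 pair) differed by a chi-square per gene of 1.82 to 5.42, above the median of 1.54 between 2 runs of 1 cell and below the 95th percentile of 5.99, so each pair was counted as 1 cell. In 2 cells, 1 WT and 1 let-7, the 2 sequencing runs differed as much as different cells did. Counts summed to between 513521 and 3979274 per cell, with medians between 1307481 and 1574732 in the 4 conditions. Dgcr8 itself had 52.3 ± 119 normalized counts in mock Dgcr8-/- and 120 ± 166 in WT cells, and since the deletion covers part of the gene its counts do not check the knockout. All 8 ESC markers were counted in every condition. Of 8 markers of fibroblasts (feeder cells), 3 had a count in mock, 1 in WT, 3 in let-7 and 4 in miR-294 cells, and Col1a2, Col3a1, Lum and Postn were at 0 in all 178 cells. The summed normalized count of the fibroblast list had a median of 0 in each condition, and the highest cell reached 8.35 in mock, 1.98 in WT, 357 in let-7 and 32.9 in miR-294 cells, and their part in the results was not tested. Each condition came from 1 circuit, so circuit and condition cannot be told apart, and each condition counts as 1 sample. No test between conditions was therefore possible. Values are means over cells with the SD over cells, and folds of 2 or more are called past the fold. Intervals of counts cover counting error only, since the reads carry no molecular identifiers. Those of shares cover only the sampling of cells within 1 circuit. Neither kind tests a difference between conditions.

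As background, Myc proteins bind DNA only as dimers with Max, recruit acetyltransferases, and raise transcription of genes for ribosome assembly, nucleotide synthesis and growth. Mxd proteins, Mxi1 and Mnt take Max into dimers that bring the Sin3 corepressor to the same sites. Mga takes Max into a variant Polycomb repressive complex (PRC1.6) that holds germline genes silent in ESCs. Mouse ESCs are known to use Mycn and Myc in place of each other, and Max is needed for their self-renewal. miR-294 belongs to the most abundant miRNA family of ESCs, and let-7 miRNAs accumulate as ESCs differentiate.

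The mature miRNAs are shown because the seed (bases 2 to 8, in capitals) defines the site each mimic reads. The sequences are those of RefSeq on GRCm38.p6. The let-7b, let-7c and let-7i sequences share their seed, so the name given to the mimic does not change the site searched for.
miR-294-3p: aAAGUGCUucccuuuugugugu
let-7b-5p: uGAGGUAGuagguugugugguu
let-7c-5p: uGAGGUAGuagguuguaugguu
let-7i-5p: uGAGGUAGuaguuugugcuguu

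The 7-letter complement of the miR-294 seed, AGCACTT, was searched on the transcribed strand in the longest annotated 3′UTR of each gene. It was present in 6 of the 9 members (Mga, Mnt, Mxd1, Mxd3, Mxi1 and Mycn) and in 19.1% of 10341 genes with a 3′UTR. The members' 3′UTRs had a median length of 1970 bases, against 1383 bases over all genes, and longer windows hold more matches. The let-7 complement, CTACCTC, was present in Mxd1 alone among the members and in 12.1% of all genes. The shorter complement of bases 2 to 7, TACCTC, was present in 5 members (Mycn, Mycl, Mga, Mxd1 and Mnt) and in 28.9% of all genes. Mycn held this shorter match at 2 places, each followed by A. A match is only a description of these letters.

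The sites of Mycn, Mnt and Mxi1 are shown because the means of these 3 genes were lower after a mimic, as described next, so they were picked by outcome. The printed let-7 matches of Mycn are of 6 letters, and the miR-294 matches of Mnt and Mxi1 of 7. The let-7 matches of Mycl, Mga, Mxd1 and Mnt are not shown. Their log2 ratios for let-7 over mock were -7.08, 0.34, -0.15 and -0.76. The match is in capitals, and coordinates of GRCm38 are for the printed bases. Not shown are 3 miR-294 matches of Mga, 1 of Mxd1 and 1 of Mxd3. The log2 ratios of these genes for miR-294 over mock were -0.33, -1.22 and 0.53. Max, Myc and Mycl held no 7-letter miR-294 match and had -1.34, 1.19 and -0.08. The 7-letter miR-294 match of Mycn begins at base 860 of its 3′UTR and its later let-7 match at base 872, so both lie in the same printed stretch.
Mycn spans bases 12936093 to 12941914 of chromosome 12, Mnt 74830920 to 74845725 of chromosome 11 and Mxi1 53310518 to 53375810 of chromosome 19, and all 5 printed stretches are in the last part of the transcript, the 3′UTR.
Mycn, let-7 match, chr12:12936488-12936517, minus strand: gtactgtaagaaTACCTCaatgtttgaggg
Mycn, let-7 match next to the miR-294 match, chr12:12936117-12936146, minus strand: agcactttgaaaTACCTCatgtttatgaaa
Mnt, miR-294 match, chr11:74845647-74845675, plus strand: tccatgtaataAGCACTTgcctggaataa
Mxi1, miR-294 match, chr19:53372863-53372891, plus strand: tagttacgttcAGCACTTgtctcatttaa
Mxi1, miR-294 match, chr19:53373410-53373438, plus strand: gtgcctgcaaaAGCACTTcgccgttgctt

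On the length-corrected FPKM scale the members differed widely in level. Mga had the highest mean in every condition, with 103 ± 77.4 FPKM (SD, n = 60 cells) in mock Dgcr8-/-, 78.95 ± 56.7 (n = 16) in WT, 121 ± 94.4 (n = 45) in let-7 and 100.2 ± 65.96 (n = 57) in miR-294 cells. Mycn followed in mock Dgcr8-/- cells, at 27.1 ± 34.9 FPKM, and Max came next at 14.2 ± 26.99 FPKM. The other 6 members had means between 1.44 (Mxd1) and 4.72 (Mnt) FPKM there, each with an SD above its mean, so that their order among themselves lay within the spread over cells. In WT cells Myc had a mean of 16.6 ± 46.4 FPKM and Mycn of 9.03 ± 10.6 FPKM, and this order rested on 1 cell, as described under Myc.

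Mga was also the only member counted in all cells of all 4 conditions. Its normalized count ran from 115 to 2378 (median 659) in mock, 94.7 to 1764 (median 491) in WT, 91.7 to 2535 (median 735) in let-7 and 80.2 to 1489 (median 544) in miR-294 cells. The 4 ranges overlapped almost entirely. The other members were counted in part of the cells, and the median cell had a count for 4 of the 9 members in mock, WT and miR-294 and for 3 of the 9 in let-7 cells.

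**Figure D1:**
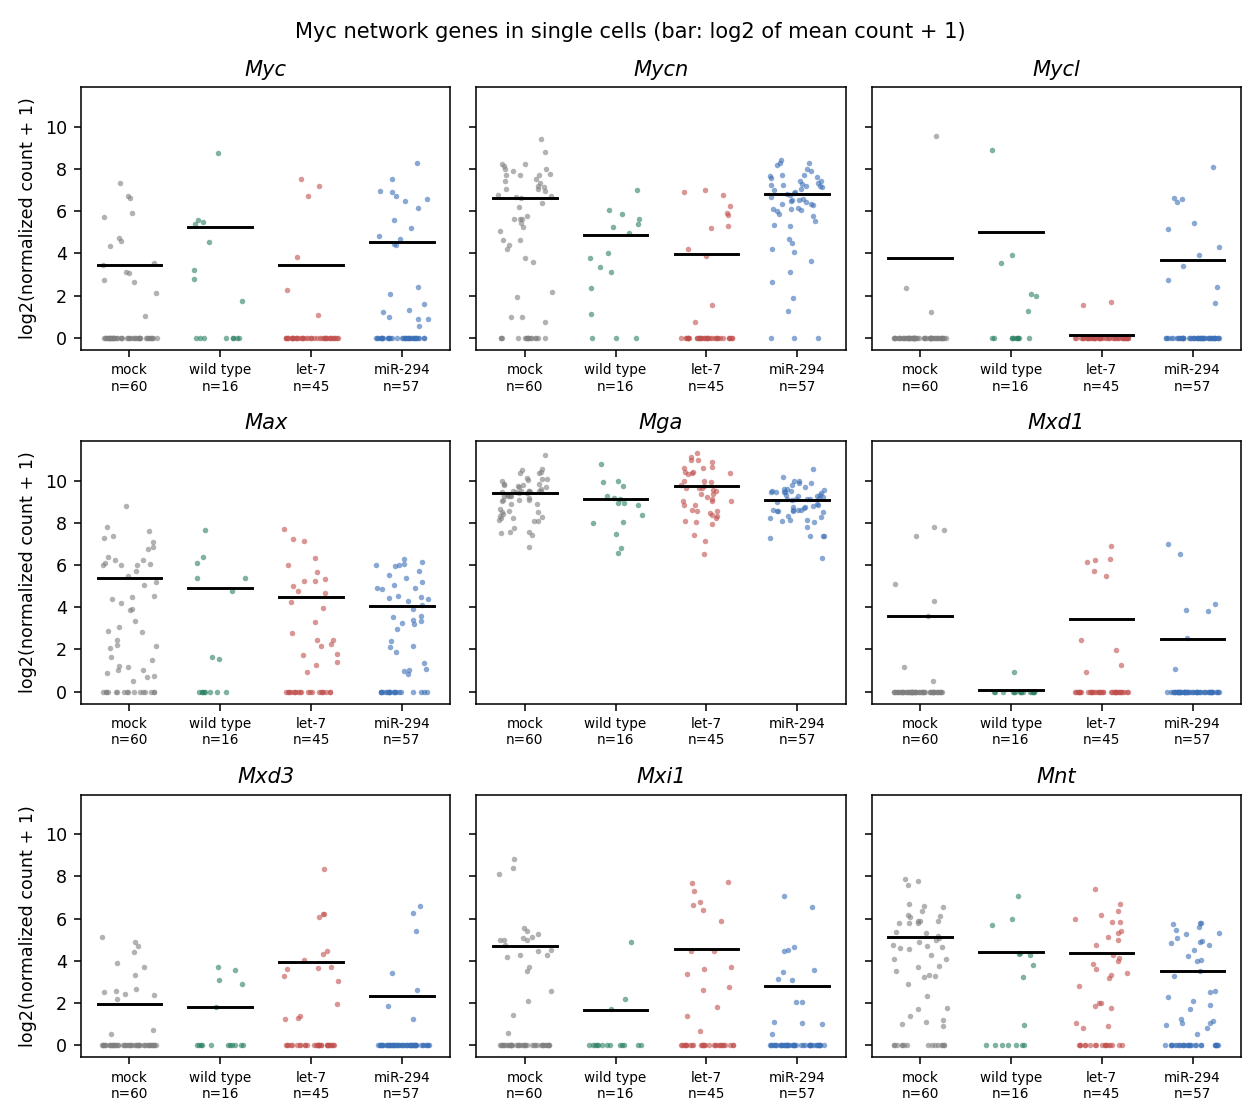
Each panel plots 1 gene of the Myc network, with the 4 conditions on the x axis and log2(normalized count + 1) on the y axis. Points are cells and bars are the log2 of the mean normalized count plus 1. Mycn lay at 0 in most let-7 cells and above 0 in 54 of 57 miR-294 cells, while Mga lay above 0 in every cell.

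Mycn, which encodes N-Myc, the main Myc activator of mock Dgcr8-/- cells by FPKM, had fewer counts after let-7. Its normalized count ranged from 0 to 686 with a median of 44.9 in mock Dgcr8-/- cells, and from 0 to 129 with a median of 0 in let-7 cells. It was counted in 44 of 60 mock cells (73.3%, exact binomial 95% interval 60.3 to 83.9%) and in 12 of 45 let-7 cells (26.7%, 14.6 to 41.9%). These intervals describe the cells of each circuit and do not test the conditions against each other, and the 2 ranges of levels overlapped. The mean was 96.7 ± 130 in mock and 14.6 ± 33.3 in let-7 cells, 6.64-fold lower (log2 ratio -2.73), and a let-7 cell was above a mock cell in 23.2% of all pairs of cells. Over 8 alternative settings the log2 ratio stayed between -3.10 and -2.70. With every cell thinned to 500000 counts, Mycn was counted in 42 of 60 mock and 10 of 45 let-7 cells.

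After miR-294, Mycn was counted in nearly every cell, with less difference in its mean. Counts were present in 54 of 57 miR-294 cells (94.7%, 85.4 to 98.9%), against 44 of 60 mock cells, and in 53 of 57 after thinning. The normalized count ranged from 0 to 342 with a median of 92.3, so that the highest miR-294 cell was below the highest mock cell while the median was above the mock median. The mean was 111 ± 87.1, a log2 ratio to mock of 0.20. As a difference of mean log2(normalized count + 1), which weights the cells without a count more, the value was 1.56, past the fold. Among cells with a count, the median was 97.7 in miR-294 and 102 in mock cells, so the cells with a count had similar medians while their number differed. Between mock and WT cells the shares were close, with 13 of 16 WT cells counted (81.2%, 54.4 to 95.95%), but the highest WT cell reached 127 and the mean was 28.6 ± 34.3, 3.38-fold below mock.

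Myc, which encodes c-Myc, was sparser than Mycn in every condition. It was counted in 16 of 60 mock cells (26.7%, 16.1 to 39.7%), 6 of 45 let-7 cells (13.3%, 5.05 to 26.8%), 23 of 57 miR-294 cells (40.4%, 27.6 to 54.2%) and 8 of 16 WT cells (interval 24.7 to 75.3%). The other 3 intervals all overlapped that of the mock cells. Its mean normalized count was 22.6 ± 55.4 in miR-294 and 9.89 ± 28.7 in mock cells, 2.29-fold higher, and 9.99 ± 37.2 in let-7 cells, with a log2 ratio to mock of 0.01. The miR-294 ratio stayed above 0 in all 8 alternatives and past the fold in 7 of them, the exception being the difference of mean log2 values, at 0.57.

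The WT level of Myc rested on the WT cell whose runs disagreed. That cell held 71.5% of all Myc counts of WT cells, 921 of them in its first run, which had 17 counts of Mga, and 1 in its second run, which had 1038 counts of Mga. With this cell the mean was 37.4 ± 106 in WT cells and the log2 ratio of mock to WT was -1.92. Without the 2 cells whose runs disagreed, the log2 ratio was -0.20.

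Mycl, which encodes L-Myc, was the rarest of the 3 activators in mock and let-7 cells. It was counted in 3 of 60 mock, 6 of 16 WT, 2 of 45 let-7 and 12 of 57 miR-294 cells. One mock cell held 99.3% of the mock counts and one WT cell 93.5% of the WT counts, so no ratio of its means is more than a statement about those cells. The log2 ratio of let-7 to mock was -7.08 with the highest cell of each condition and -1.06 without it, and that of miR-294 to mock was -0.08 with and 6.33 without it. The shares of cells do not depend on such single high cells, and had intervals of 1.04 to 13.9% in mock and 11.4 to 33.9% in miR-294 cells.

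Taking Myc and Mycn by cell, neither gene was counted in 10 of 60 mock (16.7%), 2 of 16 WT (12.5%), 30 of 45 let-7 (66.7%) and 2 of 57 miR-294 cells (3.51%). Both were counted in 22 of 57 miR-294 cells (38.6%) and 7 of 16 WT cells (43.8%), against 10 of 60 mock cells (16.7%) and 3 of 45 let-7 cells (6.67%). The summed FPKM of Myc, Mycn and Mycl was 33.1 ± 37.1 in mock, 32.6 ± 49.5 in WT, 7.33 ± 15.5 in let-7 and 47.8 ± 39.01 in miR-294 cells. Mycn made up 81.9% of the summed mean in mock, 73.3% in miR-294, 51.3% in let-7 and 27.7% in WT cells. The WT sum and share rested on single cells. In WT, 1 cell held 71.5% of the normalized Myc counts and another 93.5% of those of Mycl. The order of the 3 genes in WT cells is therefore not read.

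**Figure D2:**
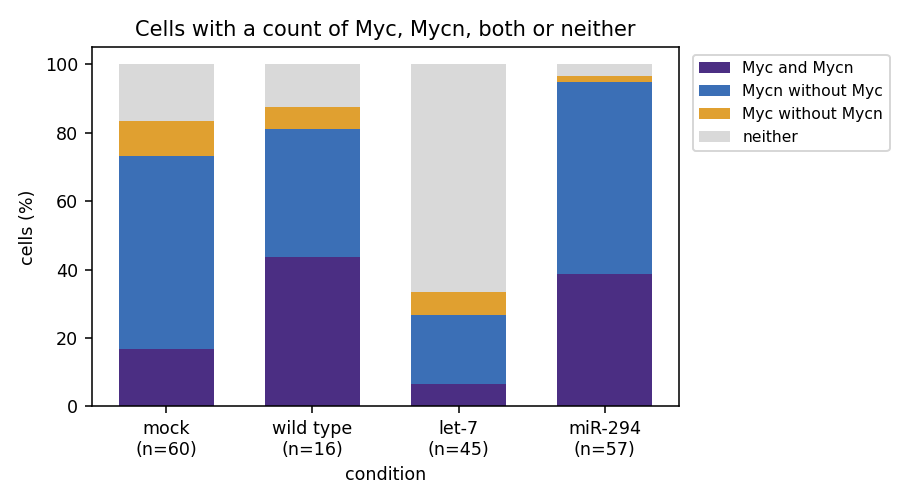
The bars stack to 100% of the cells of each condition (x axis), and the y axis gives the percent of cells with a count of both Myc and Mycn, of 1 of them, or of neither. Cells with neither made up 66.7% of let-7 cells and between 3.51% and 16.7% of the other conditions.

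Max, the shared partner that every Myc and Mxd protein needs to bind DNA, had a lower mean after both mimics. Its normalized count ranged from 0 to 443 (median 5.27) in mock, 0 to 198 (median 0.951) in WT, 0 to 205 (median 1.66) in let-7 and 0 to 76.5 (median 4.32) in miR-294 cells. The means were 40.2 ± 74.5, 28.7 ± 52.4, 21.1 ± 43.3 and 15.9 ± 21.8 in that order. The log2 ratio to mock was -1.34 after miR-294 and -0.93 after let-7. The miR-294 difference was in the upper tail, since 8 of 60 mock cells and 0 of 57 miR-294 cells reached 100 normalized counts, while the medians were close. The shares of cells with a count were 73.3% in mock, 64.9% in miR-294 and 55.6% in let-7 cells, with overlapping intervals, and thinning to 500000 counts left 33 of 60 mock cells with a count.

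For Mga, the partner that links Max to PRC1.6, the largest of the 3 log2 ratios in size was smaller than that of any other member. Its log2 ratio was -0.33 for miR-294 over mock, 0.34 for let-7 over mock and 0.28 for mock over WT. The median log2 ratio of all 11227 genes was -0.28, 0.18 and 0.37 in the same comparisons, so Mga lay -0.05, 0.16 and -0.09 from the median gene. With scaling by the library total those medians were -0.08, 0.11 and 0.16. The members' ratios can be read against these shifts.

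Among the repressors, Mnt, the most widely expressed Max-binding antagonist of Myc, was the one counted in most cells. Its normalized count ranged from 0 to 232 (median 14.1) in mock, 0 to 134 (median 4.72) in WT, 0 to 171 (median 2.96) in let-7 and 0 to 55.2 (median 0.970) in miR-294 cells. The mean was 33.7 ± 50.4 in mock and 10.5 ± 16.7 in miR-294 cells, 3.22-fold lower (log2 ratio -1.69), and a miR-294 cell was above a mock cell in 32.9% of pairs. This ratio stayed between -1.79 and -1.43 in all 8 alternatives. The share of cells with a count had an interval of 62.1 to 85.3% in mock (45 of 60 cells) and of 40.7 to 67.6% in miR-294 cells (31 of 57). After let-7 the mean was 19.9 ± 34.3 and the log2 ratio -0.76.

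Mxi1, a repressor of the Mxd family, was counted in fewer cells, and its mean differed between mock Dgcr8-/- and WT cells. It was counted in 23 of 60 mock (38.3%, 26.1 to 51.8%), 3 of 16 WT (18.8%, 4.05 to 45.6%), 17 of 45 let-7 (37.8%) and 15 of 57 miR-294 cells (26.3%). The mock and WT intervals overlapped. The WT total was 36 counts, and 1 WT cell held 82.8% of the normalized WT counts. Its mean was 25.2 ± 79.5 in mock, 2.14 ± 7.07 in WT, 22.6 ± 52.6 in let-7 and 5.94 ± 21.5 in miR-294 cells. The miR-294 mean was 4.24-fold below mock (log2 ratio -2.08), and the mock mean was 11.8-fold above WT (log2 ratio 3.55). Both ratios kept their sign in all 8 alternatives, at -2.47 to -0.94 and 1.24 to 5.51. The let-7 ratio was -0.16 and changed sign in 1 of 8 alternatives. The SDs exceeded the means in every condition. Mxi1 shares 194 exonic bases with a gene on the opposite strand, Gm10197, and reads of the 2 could not be told apart unless the counting used strand.

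Mxd1 and Mxd3, repressors best known from cells leaving the cycle and from S phase respectively, were rare. Mxd1 was counted in 8 of 60 mock, 1 of 16 WT, 10 of 45 let-7 and 7 of 57 miR-294 cells. The WT total was 1 count, against 516 in mock cells, a ratio of summed counts at equal depth of 136 with a 95% counting interval of 24.3 to 5382. This interval covers reads and not cells, and 3 of 60 mock cells reached 100 normalized counts. The shares of cells with a count were 13.3% (5.94 to 24.6%) in mock and 6.25% (0.158 to 30.2%) in WT cells. These intervals overlapped, so the ratio of 136 describes a few mock cells. The log2 ratio of Mxd1 for miR-294 over mock was -1.22, and -0.17 on summed counts. Mxd3 was counted in 15 of 60 mock, 5 of 16 WT, 16 of 45 let-7 and 7 of 57 miR-294 cells. Its mean was 14.5 ± 50.8 in let-7 and 2.85 ± 7.21 in mock cells (log2 ratio 2.35), and 1 let-7 cell held 49.8% of the let-7 counts, without which, and without the highest mock cell, the log2 ratio was 1.68. Mxd3 shares 105 exonic bases with Prelid1 on the opposite strand.

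Counting the 4 repressors by cell, at least 1 was present in 52 of 60 mock (86.7%), 13 of 16 WT (81.2%), 38 of 45 let-7 (84.4%) and 37 of 57 miR-294 cells (64.9%). At least 2 were present in 30 of 60 mock cells, 31.2% of WT, 51.1% of let-7 and 28.1% of miR-294 cells. These shares were close to one another in mock and let-7 cells, and lower in miR-294 cells.

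**Figure D3:**
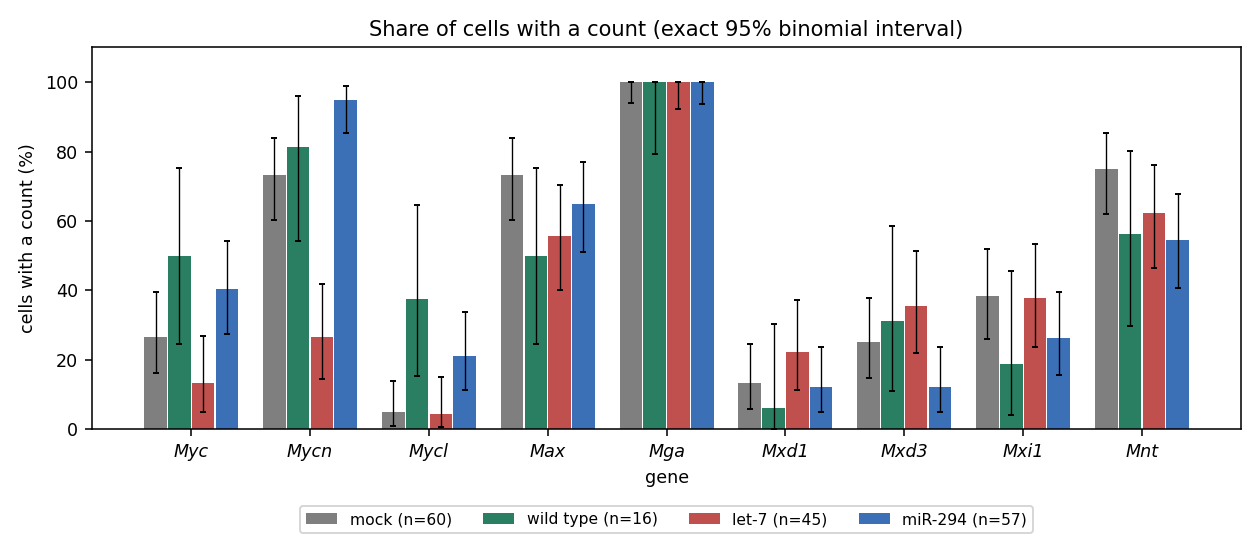
The x axis lists the 9 genes, bars give the percent of cells with a count on the y axis for each condition, and error bars are exact 95% binomial intervals. Mycn stood at 26.7% in let-7 and 94.7% in miR-294 cells, and Mga at 100% in every condition.

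Set beside all genes, the members were not uniformly displaced. After miR-294, 1 of 9 members (Myc) was 2-fold or more higher than in mock cells, where 5.8% of all 11227 genes were, and 4 of 9 (Max, Mxd1, Mxi1 and Mnt) were 2-fold or more lower, where 20.6% were. As a difference of mean log2 values, the 1 member past the fold upward was Mycn in place of Myc. After let-7, 2 of 9 (Mycn and Mycl) were past the fold downward, where 9.2% of all genes were. Mxd3 was past the fold upward, but it passed the mean count of 5 through the let-7 cells. Its mean was 2.85 in mock, 2.47 in WT and 4.11 in miR-294 cells, so it is not read against the 18.6% of all genes that were higher. Between mock and WT cells, 3 of 9 (Mycn, Mxd1 and Mxi1) were past the fold upward, where 31.8% of all genes were, a share near the background, and 2 of 9 (Myc and Mycl) downward, where 9.39% were. The median log2 ratio of the members was -0.33 after miR-294, -0.16 after let-7 and 0.49 for mock over WT. The mimic comparisons share the mock cells, so they are not independent of each other.

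**Figure D4:**
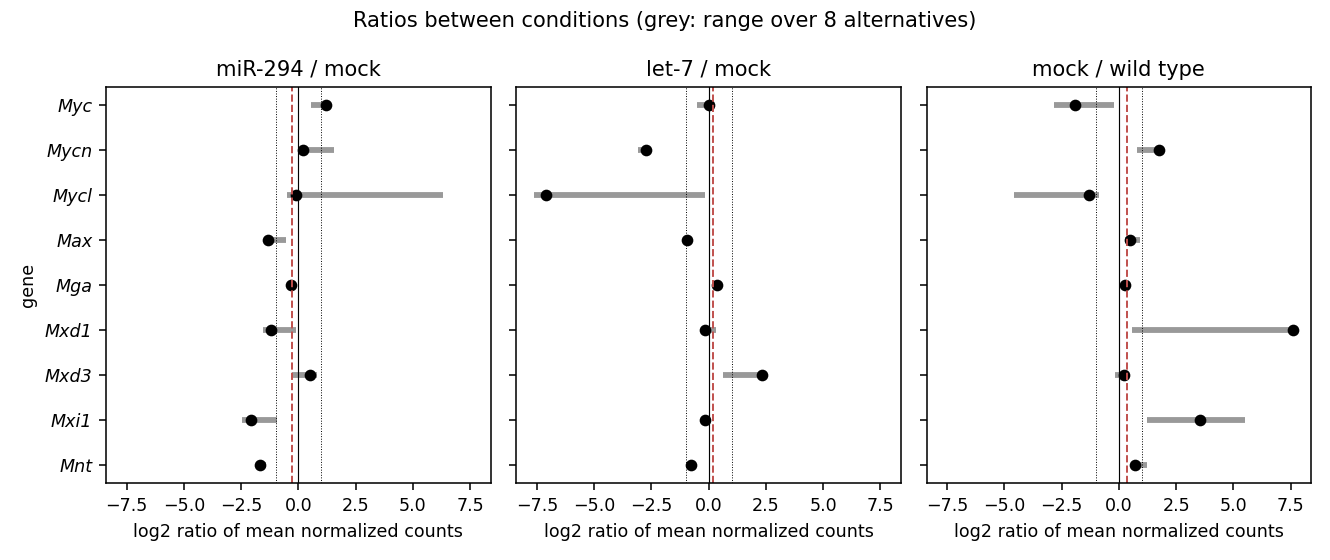
Points give the log2 ratio of mean normalized counts (x axis) of each gene (y axis) in the 3 comparisons, grey bars the range with 8 alternative settings, the dashed line the median of all genes and dotted lines a fold of 2. Mycn lay at -2.73 for let-7 over mock and Mnt at -1.69 for miR-294 over mock, both with narrow ranges, whereas the range of Mycl spanned from -0.51 to 6.33 for miR-294 over mock.

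Of the genes known to be activated by Myc, 37 formed the ribosome biogenesis list. Most encode nucleolar and ribosome assembly factors, but the list also holds the chaperonin genes Hspd1 and Hspe1. Npm1 and Ncl had its highest means in mock cells, 6351 and 2311, and weigh most in the sums. The summed normalized count of these genes per cell ranged from 8454 to 28596 (median 20054) in mock, 13128 to 27050 (median 22625) in WT, 8919 to 19108 (median 13485) in let-7 and 15839 to 30284 (median 23178) in miR-294 cells. The ranges overlapped, and the let-7 median was below the lowest miR-294 cell. The mean sums were 19355 ± 4098, 22359 ± 3111, 13462 ± 2432 and 23125 ± 2719 in that order.

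By gene, 32 of the 37 ribosome biogenesis genes had a log2 ratio above 0 for miR-294 over mock, against 3891 of all 11227 genes. Their median was 0.33 against -0.28 over all genes. Past the fold were 0 of them in either direction, where 5.8% of all genes were higher and 20.6% lower. For let-7 over mock 32 of 37 were below 0, against 4589 of all 11227 genes, with a median of -0.35 against 0.18. Of the 37, 5 were 2-fold or more lower, where 9.2% of all genes were, and 1 higher, where 18.6% were. Over the alternative settings the median stayed between 0.29 and 0.77 after miR-294 and between -0.79 and -0.33 after let-7. For mock over WT 25 of 37 were below 0, against 4098 of all 11227 genes, with a median of -0.17 against 0.37 over all genes.

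Imp4, a factor of small ribosomal subunit assembly, had the largest difference after let-7, with 77.8 ± 157 normalized counts in let-7 and 364 ± 258 in mock cells (log2 ratio -2.23). Rrp12, Bop1 and Polr1b, the last a subunit of RNA polymerase I, had log2 ratios of -1.32, -1.24 and -1.12 there. After miR-294 the largest ratios were those of Gar1 (0.97), Exosc5 (0.83), Rcl1 (0.78) and Noc4l (0.78). Gar1 went against the list after let-7, with a log2 ratio of 1.08. Between mock and WT cells Bop1 (2.27) and Ipo4 (1.10) were higher and Fbl (-1.38) and Gar1 (-1.22) lower in mock.

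The list of metabolic and cell cycle genes activated by Myc, 34 of whose 35 genes passed the mean count of 5, was more mixed. For miR-294 over mock 23 were above 0 (median 0.15), against 3891 of all 11227 genes. Past the fold were 3 higher and 5 lower, where 5.8% and 20.6% of all genes were. For let-7 over mock 25 were below 0 (median -0.32), against 4589 of all 11227 genes. Past the fold were 4 higher and 4 lower, where 18.6% and 9.2% of all genes were. Ccnd2, cyclin D2, had log2 ratios of -2.50 for miR-294 over mock and 5.07 for mock over WT. Slc1a5, a glutamine transporter, had ratios of 1.71 after miR-294 and 1.62 after let-7, and the cell cycle factor E2f2 had -1.66 and -2.37. Gart, a purine synthesis enzyme, had -1.65 and the amino acid transporter Slc7a5 1.53 after let-7, and Shmt1, of one-carbon metabolism, had 1.41 after miR-294. E2f1 (4.57), Prps2 (2.54) and E2f2 (2.53) were the largest after Ccnd2 for mock over WT, where the list had a median of 0.29. The WT means of these genes were near the floor, at 1.13, 2.55, 1.68 and, for Ccnd2, 1.52. In WT, E2f2 was counted in 1 of 16 cells and Ccnd2 in 3. E2f2 averaged 9.74 in mock, 1.89 in let-7 and 3.08 in miR-294 cells, so it passed the mean count of 5 through the mock cells. The 5 and 4 genes past the fold lower after the mimics include it, and its ratios are not read.

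The 9 genes known to be repressed by Myc and Miz1 or related partners had a median log2 ratio of -0.61 for miR-294 over mock, 0.32 for let-7 over mock and 2.01 for mock over WT. The mock over WT median was the ratio of Cdkn1c itself, and was 0.67 as a difference of mean log2 values. The miR-294 median was 0.02 as a difference of mean log2 values and -0.22 without the highest cell of each condition, and the let-7 median was 1.09 without the highest cell. Their summed normalized count had a median of 439 in mock, 113 in WT, 803 in let-7 and 167 in miR-294 cells. Cdkn1a, the cell cycle inhibitor p21 and a known target of the miR-294 family, was at 318 ± 338 in mock, 67.5 ± 61.5 in WT, 416 ± 452 in let-7 and 59.96 ± 70.5 in miR-294 cells, with log2 ratios of -2.41 for miR-294 over mock and 2.24 for mock over WT. The inhibitors Cdkn2b (-3.99) and Cdkn1c (-3.67) had lower and Ndrg2 (2.53) a higher ratio for miR-294 over mock. Few mock cells carried the inhibitors, 7 of 60 for Cdkn2b (22.2 ± 135) and 4 of 60 for Cdkn1c (20.9 ± 157). Cdkn1c averaged 5.18 in WT, 4.08 in let-7 and 1.64 in miR-294 cells. It passed the mean count of 5 mainly through the mock cells, so its ratios are not read. Ndrg2 averaged 2.765 in mock, 15.4 in WT, 0.60 in let-7 and 15.98 in miR-294 cells, and 5 of 60 mock cells counted it. The stress gene Gadd45a was 3.43 and the chaperone gene Clu 2.88 higher in log2 after let-7, while Cdkn1c (-2.36) and Ndrg2 (-2.20) were lower. Gadd45b had a log2 ratio of 3.65 and Ndrg2 of -2.48 for mock over WT, the latter counted in 3 of 16 WT cells.

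**Figure D5:**
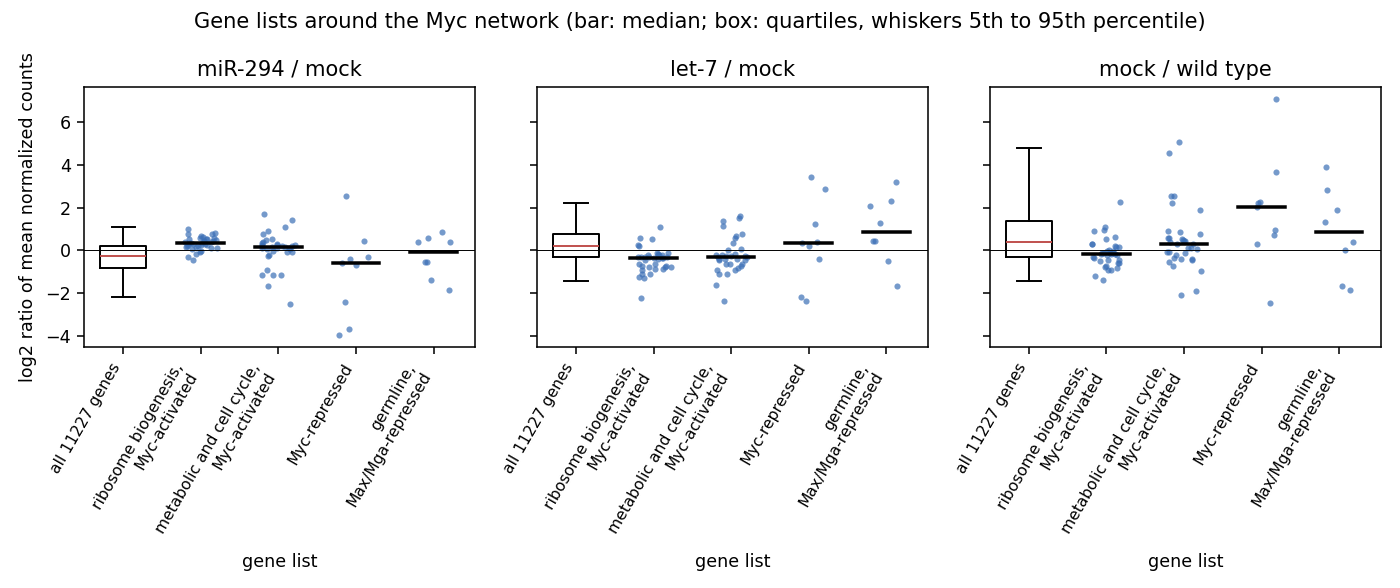
The y axis gives the log2 ratio of mean normalized counts in the 3 comparisons, with points for genes of 4 lists and a bar at each list's median, beside a box of all 11227 genes. The ribosome biogenesis genes had a median of 0.33 after miR-294 and -0.35 after let-7. The Myc-repressed genes had a median of 2.01 for mock over WT, the ratio of Cdkn1c, which few mock cells carried. The bar of the germline list is not read, since Smc1b and Sycp1 entered it through the let-7 cells.

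The ESC markers moved with the let-7 condition and are given beside it. All 8 had a log2 ratio below 0 for let-7 over mock, with a median of -0.74. Sall4 (-2.40) and Nanog (-1.50) were past the fold, and Tfcp2l1 (-0.92) and Sox2 (-0.88) were not. Their summed normalized count had a median of 2384 in let-7 cells and 5887 in mock cells. In miR-294 cells, by contrast, the median was 6022, and the ratios of Klf4 (0.69), Esrrb (0.43), Tfcp2l1 (-0.38) and Zfp42 (0.26) were all within the fold. The part of this shift in the levels of Mycn and the ribosome biogenesis genes was not tested. Pou5f1 (1.40) was the single ESC marker past the fold for mock over WT, where Esrrb (-0.97), Klf4 (-0.74) and Sox2 (0.55) were the next largest. Of 10 differentiation markers, Gata4 and Mixl1 passed the mean count of 5, with log2 ratios of 1.98 and -0.86 for let-7 over mock and of 0.43 and -2.19 for miR-294 over mock. For mock over WT Mixl1 was at 0.34, and Gata4 had no count in WT cells.

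All 15 cofactors of Myc passed the mean count of 5, with a median log2 ratio of 0.12 for miR-294 over mock, 0.19 for let-7 over mock and 0.06 for mock over WT. The let-7 median ran from -0.21 to 0.22 and the mock over WT median from -0.14 to 0.24 over the alternatives, so neither kept its sign. Kat5, an acetyltransferase, was at 1.22 after miR-294 and 2.01 after let-7, and -1.29 for mock over WT. The helicase Ruvbl2 (0.92), Wdr5 (0.56) and the elongation kinase Cdk9 (0.46) followed after miR-294, and Zbtb17 (Miz1, 1.55), Kat2a (-0.72) and Cdk9 (0.60) after let-7. For mock over WT Kat2a (2.37), Trrap (1.90) and Zbtb17 (1.43) were past the fold. The genes that control Myc protein stability had medians of -0.17, -0.18 and 0.07, of which the first reached 0.28 and the last -0.16 under an alternative. Among them the mitotic kinases Plk1 (1.28) and Aurka (0.91) were highest after miR-294, with Skp2 (-0.92) and Huwe1 (-0.65) lowest. Skp2, part of a ubiquitin ligase of Myc, had -1.61, Plk1 -0.92, Ppp2r5a 0.86 and Fbxw7 0.46 after let-7. Gsk3b (1.31), Plk1 (-0.88), Aurka (-0.55) and Ppp2r5a (0.50) were the largest for mock over WT.

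The Sin3 corepressor, which the Mxd proteins and Mnt recruit, had medians of -0.19 after miR-294 and -0.05 after let-7, and 0.89 for mock over WT, where the median of all genes was 0.37. The miR-294 median reached 0.01 under an alternative. Of its 13 genes, 1 was 2-fold or more lower after miR-294 (Arid4b, -1.06), where 20.6% of all genes were. None was after let-7, where 9.2% of all genes were. Hdac1 had the largest ratio after let-7 (-0.67), followed by Rbbp4 (-0.45), Suds3 (0.37) and Brms1 (-0.37). Hdac2 (-0.73), Rbbp7 (-0.58) and Hdac1 (-0.51) followed Arid4b after miR-294. For mock over WT 5 of 13 were past the fold higher, where 31.8% of all genes were, and 1 lower, where 9.39% were, among them Suds3 (2.14), Sap30 (2.06), Brms1 (1.65) and Ing2 (-1.33).

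The partners of Mga and Max in PRC1.6 had medians of -0.16 after miR-294, -0.14 after let-7 and 0.29 for mock over WT, over the 11 of 12 that passed the mean count of 5. The first and the last turned sign under an alternative, to 0.04 and -0.06. L3mbtl2, a defining subunit, had 488 ± 467 normalized counts in mock and 193 ± 265 in let-7 cells (log2 ratio -1.34), and 734 ± 519 in miR-294 cells (0.59). E2f6, the DNA-binding subunit, was at -1.38 and Hdac1 at -0.67 after let-7, and Yaf2 at 1.63. Yaf2 had -1.69, Hdac2 -0.73 and Pcgf6 -0.64 after miR-294. Hdac2 (1.03), Rybp (-0.99), Wdr5 (-0.99) and Hdac1 (0.97) were the largest for mock over WT.

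Of the 16 germline genes that Max and Mga are known to hold down in ESCs, 8 passed the mean count of 5. Smc1b and Sycp1 passed through the let-7 cells, since their means were 1.98 and 3.19 in mock, 0.54 and 3.21 in WT and 3.55 and 4.76 in miR-294 cells, so no count or median of the list is given. The meiosis genes Smc1b (3.18), Stag3 (2.30) and Sycp1 (2.05) were highest and Sohlh2 (-1.69) lowest after let-7. Smc1b was counted in 15 of 45 let-7 and 3 of 60 mock cells. Sycp3 (-1.85), Stk31 (-1.41), Smc1b (0.84) and Sycp1 (0.58) were the largest after miR-294. For mock over WT they were Stag3 (3.89), Ddx4 (2.82), Smc1b (1.88) and Stk31 (-1.84).

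Of the relatives outside the 9, Mxd4, another Mxd repressor, was counted in 8 of 60 mock and 7 of 45 let-7 cells, and in 0 of 57 miR-294 cells, which allows a share of up to 5.26%, and 0 of 16 WT cells, which allows up to 18.8%. Its mean was 11.8 ± 48.5 normalized counts in mock cells, and no fold is given against the conditions without a count, since few cells carried it. Its log2 ratio was -0.75 for let-7 over mock. Mlxip, which encodes MondoA, had log2 ratios of 2.01, 0.63 and -0.38, and its partner Mlx 0.43, 0.38 and -0.43, for miR-294 over mock, let-7 over mock and mock over WT. Txnip and Arrdc4, the best known targets of Mlx and MondoA, were at 1.34 and 1.78 after let-7, -0.77 and 1.64 after miR-294, and 1.35 and -0.70 for mock over WT.

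The E-box CACGTG, which reads the same on both strands, was searched in the RefSeq promoter windows of GRCm38.p6 from 250 bases before to 50 after each start. It was present in 8.09% of 27025 genes with a window. It was present in 31.2% of the 32 ribosome biogenesis genes with a window, 34.5% of 29 metabolic and cell cycle genes and 62.5% of 16 germline genes. Of the members, 8 had a window, and Max and Mnt held the element.

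Within mock Dgcr8-/- cells the members varied with little relation to each other. Over 60 cells, Spearman's rho between Mycn, Max, Mga and Mnt, the 4 members counted in at least 50% of mock cells, lay between -0.18 and 0.18, and that of Mycn with the ribosome biogenesis list was 0.18. These cells share a circuit and their counts are sparse. The genes whose counts were most like Mycn across mock cells were Ndufb10 (rho 0.48), Basp1 (0.46) and Ube2k (0.44), over 11227 genes, and in miR-294 cells the same 3 had rho of -0.14, -0.05 and 0.27. For Max they were Tmem40 (0.51), Trmt61b (0.45) and Zfp947 (0.44), with rho of 0.002, -0.09 and -0.02 in miR-294 cells. For Mga they were Cops2 (0.56), Zfp992 (0.48) and Smarca5 (0.46), with 0.20, 0.21 and 0.25 there. For Mnt they were Gm13233 (0.47), Mroh1 (0.45) and Gbp9 (0.44), with -0.08, 0.12 and 0.03 there.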

How the data were processed

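The files the authors deposited hold, per run and gene, an expected count (not normalized) and an FPKM, both made with RSEM 1.2.19 against GENCODE M4. They had removed cells with few reads and transfected cells without downregulated targets, which bears on the miRNA comparisons. Here the expected counts of a cell were added up across its runs, rounded and divided by DESeq size factors from 864 genes counted in every cell. FPKM, averaged over runs, served for levels between genes. Symbols matched 41674 of 42493 gene IDs. The log2 ratio of mean normalized counts was taken over genes averaging 5 counts or more per cell. Pairs of cells and runs were compared by the chi-square per gene, which was 1.54 (median) between 50 pairs of runs and 1.82 to 5.42 in the 4 pairs of cells counted once. Of the 31-letter words in the members' transcripts, at most 3.99% (Mxd3) occurred in transcripts of another gene. The analysis used Python 3.11.15, numpy 2.4.6, scipy 1.17.1, pandas 2.3.3, matplotlib 3.10.9 and, for TMM factors, edgeR 4.0.16 (R 4.3.3), and the computations were tested on simulated data. The miR-294 group holds 3 cells with another title style. Named genes were all members and, per list and comparison, up to 4 genes with the largest ratio, plus 3 genes most like each member counted in at least 50% of mock cells. The members and lists were chosen with earlier results of these data known.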

Additional observations from a re-analysis of the deposited data

How the results depend on the processing

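The alternatives were scaling by library total or TMM, a difference of mean log2(normalized count + 1), the first run of each cell, only cells titled miRNA294, near-identical cells both kept, and each gene without its highest cell of each condition. A further one, without the 2 cells whose runs disagreed, was chosen after seeing the data. Of the members' log2 ratios under these, 210 moved by less than the SD over cells and 6 by more. Without the highest cell, Mycl was 6.33 (miR-294 over mock), -1.06 (let-7 over mock) and -4.58 (mock over WT), Mxd1 was 5.47 for mock over WT, the members past the fold were 2 higher after miR-294 and 1 lower for mock over WT, and 5.74% of all genes were lower for mock over WT. As a difference of mean log2 values, Mycl was -0.15 (let-7 over mock) and Mxd1 0.57 (mock over WT), Mycn was 1.56 (miR-294 over mock), members past the fold were 1 lower after miR-294, 0 higher and 1 lower after let-7 and 1 higher for mock over WT, genes past the fold were 8.52% lower after miR-294, 11% higher after let-7 and 19.1% higher for mock over WT, and the medians for mock over WT were -0.11 (germline genes) and 0.67 (Myc-repressed genes, 0.96 with library totals). At a fold of 1.5, 4 members were lower after let-7. With the first run only, or without the 2 cells whose runs disagreed, 1 member was lower for mock over WT. With all genes counted in at least 1 cell, 12.6% were higher after miR-294. Thinned to 500000 counts, the share of cells was 0.0% for Mycl in let-7, 55% for Max in mock and 0.0% for Mxd1 in WT cells. The cause was not tested. No paired analysis was possible because each condition is 1 sample and the result comes from no test. The depth leaves rare members undetected in many cells, and with 16 WT cells 1 cell can set a mean.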
